A study of Homo sapiens with 24 samples.

Results

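The transcripts described here encode 10 histone chaperones and chaperone subunits: SUPT16H and SSRP1 (the FACT complex), CHAF1A and CHAF1B (CAF-1), ASF1A and ASF1B, NASP, HIRA, DAXX and ATRX. They were taken by symbol from a table of 25277 symbols, and all 10 were found and were well enough expressed to be tested among 13622 symbols. Of these genes 9 have 1 line in the table. DAXX has 5, and its line was chosen by the highest mean log2 level over the 24 samples (3.053, next 3.028, lowest 2.971), the only measured value used in that step. The genes themselves were grouped with earlier results of these data known.

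Transcripts were read by poly(A) RNA-seq in 22Rv1DR and DU145DR, 2 aggressive sublines of the human prostate cancer lines 22Rv1 and DU145. Each subline received siRNA against POM121, a nucleoporin of the nuclear pore membrane, as construct 2 or construct 1, or was a control, an arm that the labels call only Control. The labels name the condition a knockout, although siRNA lowers a transcript and does not delete its gene. Each of the 6 groups holds 2 libraries read on 2 lanes, namely 4C and 5C (construct 2), 4B and 5B (construct 1) and 4A and 5A (control) in 22Rv1DR, and 1C and 2C, 1B and 2B, and 1A and 2A in DU145DR. Whether paired libraries derive from separate cultures is not stated, so the p-values measure the spread between libraries, which may be technical.

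Histone chaperones bind histones that are not yet, or no longer, in a nucleosome, and hand them to DNA or to each other. FACT loosens and rebuilds nucleosomes in the path of polymerases. CAF-1 deposits H3-H4 on newly copied DNA, ASF1 passes H3-H4 to CAF-1 or to HIRA, and NASP keeps a reserve of soluble H3-H4. HIRA and the DAXX-ATRX pair deposit the variant H3.3 independently of replication, HIRA mainly in active genes and DAXX-ATRX at telomeres and pericentric repeats.

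POM121 itself stood at 6.73 and 7.43 FPKM (fragments counted relative to transcript length and library depth) with construct 2 and at 7.68 and 7.81 FPKM with construct 1 in 22Rv1DR, against 38.5 and 37.8 FPKM in the 22Rv1DR controls. In DU145DR it stood at 12.5 and 13.2 FPKM with construct 2 and at 13.4 and 13.5 FPKM with construct 1, against 21.6 and 21.3 FPKM in the controls. The transcript fell in both lines, with a log2 fold change of -2.37 ± 0.05 in 22Rv1DR (SE, adjusted p = 9.48e-09) and -0.71 ± 0.05 in DU145DR (adjusted p = 5.66e-05), and the fall was larger in 22Rv1DR (log2 difference of the effects -1.66 ± 0.07, adjusted p = 2.84e-06). Adjusted p-values are from limma with Benjamini-Hochberg adjustment over all tested symbols, and a transcript is called lower or higher, or said to have passed the test, under 0.05. POM121 has a near-identical paralog, POM121C, and reads of the 2 may have been split between them, so its levels carry that uncertainty. As read from this transcript, and with the same uncertainty, the knockdown compared between the lines was of unequal depth.

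Among epithelial markers the keratins KRT8 and KRT18 were above the floor in both lines, and the cadherin CDH1 was listed at 0 in every DU145DR library. Of 11 markers of other cell types, 9 were listed at 0 in all libraries, and the rest were above the floor in every library of both lines. Between 12361 and 12569 symbols exceeded the 1 FPKM floor in 22Rv1DR samples and between 11884 and 12126 in DU145DR samples, and sequencing depth is unknown. The libraries 4C and 5C stood apart from each other, with a median absolute log2 difference of 0.152 over all tested symbols against 0.043 to 0.055 in the other 5 pairs. Ribosomal protein transcripts took 18.26% to 18.40% of summed FPKM in 4C and 11.99% to 12.28% in 5C, against 14.75% to 16.89% in the other 22Rv1DR libraries. Where leaving out 4C or 5C changed a call or moved a called value by over 1.5 times, the values without them are given. Such a fit leaves 1 construct 2 library in 22Rv1DR and takes the spread between 4C and 5C out of the estimate. A call gained there is therefore not a sign of stability. Lanes 1 and 2 carried the DU145DR libraries together with 4A, and lanes 3 and 4 carried the remaining 22Rv1DR libraries, so a 22Rv1DR comparison that leaves out 4A stays within 1 lane pair.

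The promoters of SUPT16H, CHAF1A and ASF1B, whose transcripts fell in 22Rv1DR, are printed beside that of ASF1A, whose transcript rose. They are RefSeq windows of 300 bases on GRCh38.p14, each running 5′ to 3′ on its gene's strand with 250 bases before the start of the gene and 50 after it. The coordinates are chr14:21383970-21384269 (minus strand) for SUPT16H, chr19:4402390-4402689 (plus) for CHAF1A, chr19:14136540-14136839 (minus) for ASF1B and chr6:118893902-118894201 (plus) for ASF1A. Capitals mark 2 motifs: the NF-Y box (CCAAT, or ATTGG where it lies on the other strand) and the CHR element (TTTGAA). The windows of SSRP1 and CHAF1B, whose transcripts also fell, held neither motif and are not printed.
SUPT16H: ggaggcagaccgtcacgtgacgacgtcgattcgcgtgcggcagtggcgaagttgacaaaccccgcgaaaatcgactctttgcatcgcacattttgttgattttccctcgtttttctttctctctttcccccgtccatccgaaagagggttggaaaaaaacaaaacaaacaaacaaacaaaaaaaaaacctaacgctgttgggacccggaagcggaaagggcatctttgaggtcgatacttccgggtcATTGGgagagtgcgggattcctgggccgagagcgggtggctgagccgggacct
CHAF1A: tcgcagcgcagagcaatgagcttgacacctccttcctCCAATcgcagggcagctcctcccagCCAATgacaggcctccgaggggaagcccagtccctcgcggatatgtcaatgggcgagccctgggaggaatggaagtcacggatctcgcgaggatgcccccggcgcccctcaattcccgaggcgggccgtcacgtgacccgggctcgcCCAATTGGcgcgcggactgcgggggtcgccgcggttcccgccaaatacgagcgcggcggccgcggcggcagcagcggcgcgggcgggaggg
ASF1B: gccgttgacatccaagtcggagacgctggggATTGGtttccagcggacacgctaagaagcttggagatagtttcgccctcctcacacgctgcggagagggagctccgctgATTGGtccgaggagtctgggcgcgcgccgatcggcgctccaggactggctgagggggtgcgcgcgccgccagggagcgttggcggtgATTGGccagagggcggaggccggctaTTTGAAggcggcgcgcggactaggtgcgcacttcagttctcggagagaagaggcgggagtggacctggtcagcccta
ASF1A: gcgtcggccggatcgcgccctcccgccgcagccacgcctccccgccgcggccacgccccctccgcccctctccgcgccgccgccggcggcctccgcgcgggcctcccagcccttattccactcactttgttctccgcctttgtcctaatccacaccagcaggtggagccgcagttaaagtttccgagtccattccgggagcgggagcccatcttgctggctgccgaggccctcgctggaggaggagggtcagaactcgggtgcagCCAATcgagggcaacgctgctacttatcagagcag

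NF-Y binds CCAAT boxes, and CHR elements are known from promoters of cell cycle genes. Windows of 8 of the 10 genes were matched by symbol. A CCAAT box on either strand was present in 5 of the 8 windows (SUPT16H, CHAF1A, ASF1A, ASF1B and NASP), against 34.6% of 35116 RefSeq promoters of the same length. CHAF1A held 4 matches, 2 of which overlap as CCAATTGG, and ASF1B held 3. The CHR element was found in 1 window, ASF1B, against 15.2% of all promoters, and an E2F core form (TTTNNCGC, both strands) in 1 window, HIRA, against 6.89%. Only this exact E2F form was searched, so a window without a match may still hold a related E2F site. A CCAAT box was present in promoters of some transcripts that fell and in that of ASF1A, which rose. SSRP1 and CHAF1B, whose transcripts also fell, held none of the 3 motifs. HIRA, called lower for the mean of both constructs, held no CCAAT box. A match of letters does not show that a factor binds.

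In 22Rv1DR both FACT transcripts fell with both constructs, and SUPT16H fell further than any other member with construct 1. SUPT16H, the larger FACT subunit, stood at 38.4 and 26.7 FPKM with construct 2 (4C and 5C) and at 18.6 and 19.5 FPKM with construct 1, against 54.1 and 53.9 FPKM in the controls. All 4 siPOM121 libraries lay below both controls, and the construct 1 libraries lay below both construct 2 libraries. The log2 fold change was -0.76 ± 0.13 with construct 2 (adjusted p = 0.00268) and -1.50 ± 0.13 with construct 1 (adjusted p = 7.36e-05), which is 0.353 times the control level. SSRP1, the HMG-box subunit of FACT, stood at 85.2 and 88.1 FPKM with construct 2 and at 70.1 and 72.3 FPKM with construct 1, against 119 and 121 FPKM in the controls. Its groups did not overlap either, in the same order, and its log2 fold change was -0.47 ± 0.04 with construct 2 (adjusted p = 0.000206) and -0.75 ± 0.04 with construct 1 (adjusted p = 9.77e-06). In bulk RNA, fewer cells with a transcript and less of it per cell cannot be told apart.

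In DU145DR the FACT transcripts stayed close to control. SUPT16H stood at 30.8 and 31.1 FPKM with construct 2 and at 29.7 and 31.1 FPKM with construct 1, against 32.6 and 33.0 FPKM in the controls. The 4 siPOM121 libraries lay below both controls, but by a log2 fold change of -0.10 ± 0.11 that did not pass the test (mean of both constructs, adjusted p = 0.62). With 4C, 5C or both left out, the same value passed (adjusted p = 0.0355, 0.0351 and 0.0353), because all groups share 1 estimate of the spread, and so did the construct 1 value (-0.11, adjusted p = 0.0416, 0.0411 and 0.0413). SSRP1 stood at 141 and 137 FPKM with construct 2 and at 132 and 136 FPKM with construct 1, against 153 and 145 FPKM in the controls. Its log2 fold change over both constructs was -0.12 ± 0.04 (adjusted p = 0.0418), a call of lower that was lost in 13 of 24 alternatives, with an adjusted p of 0.304 when control library 1A was left out.

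The level of SUPT16H relative to SSRP1 differed by line and treatment. In 22Rv1DR the ratio of their FPKM was 0.450 in 4C, 0.303 in 5C and 0.266 and 0.269 in the construct 1 libraries, against 0.454 and 0.446 in the controls. The ratio in 4C thus lay between those of the 2 controls. In DU145DR it lay at 0.218 to 0.229 in the siPOM121 libraries, against 0.213 and 0.227 in the controls, so the groups overlapped there. With 4C left out the construct 2 effect on SUPT16H in 22Rv1DR was -1.02 (adjusted p = 3e-06), and with 5C left out it was -0.49 (adjusted p = 4.88e-05). SSRP1 had -0.45 and -0.49 in the same fits. The ribosomal protein share differed between 4C and 5C as given above, and its part in the SUPT16H values was not tested.

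**Figure D1:**
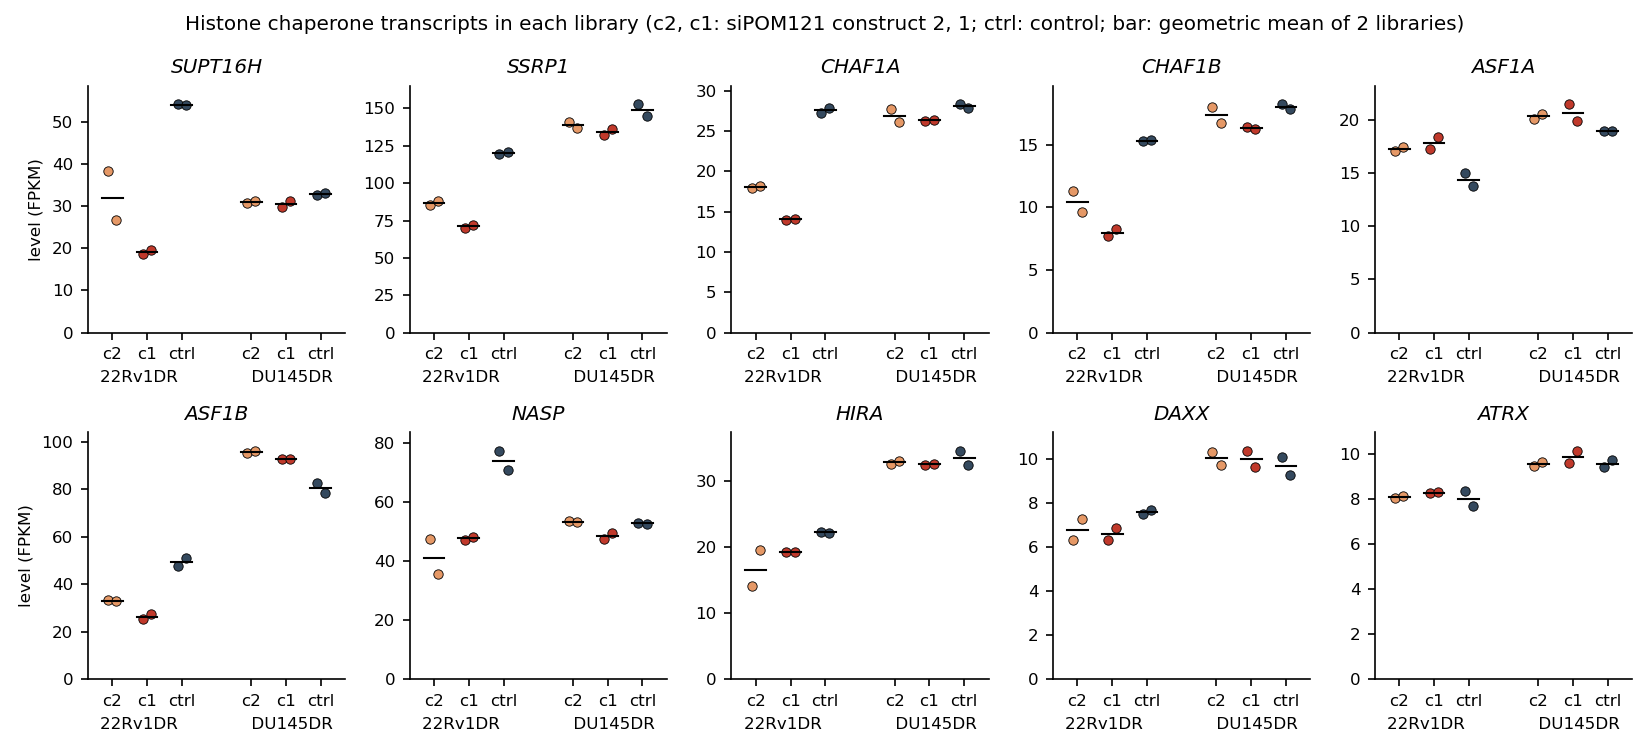
Level in FPKM of each of the 10 transcripts in every library (points) with the geometric mean of the 2 libraries of a group (bars), for siPOM121 construct 2 (c2), construct 1 (c1) and control (ctrl) in 22Rv1DR and DU145DR; each panel has its own axis from 0. In 22Rv1DR the SUPT16H libraries sit at 26.7 to 38.4 FPKM (construct 2) and 18.6 to 19.5 FPKM (construct 1), below controls at 53.9 to 54.1 FPKM, while in DU145DR all 6 lie between 29.7 and 33.0 FPKM.

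Both CAF-1 transcripts fell with both constructs in 22Rv1DR, further with construct 1, and their ratio stayed between 1.58 and 1.88 in all 22Rv1DR libraries. CHAF1A, the large subunit that binds PCNA, stood at 17.9 and 18.2 FPKM with construct 2 and at 14.0 and 14.1 FPKM with construct 1, against 27.2 and 27.9 FPKM in the controls. None of the 3 groups overlapped, and the log2 fold change was -0.61 ± 0.04 with construct 2 (adjusted p = 8.5e-05) and -0.97 ± 0.04 with construct 1 (adjusted p = 3.58e-06). CHAF1B, the WD-repeat subunit, stood at 11.3 and 9.65 FPKM with construct 2 and at 7.68 and 8.30 FPKM with construct 1, against 15.3 and 15.3 FPKM in the controls. It also fell without overlap, with a log2 fold change of -0.55 ± 0.08 for construct 2 (adjusted p = 0.00102) and -0.94 ± 0.08 for construct 1 (adjusted p = 5.59e-05). The construct 2 value of CHAF1B was -0.66 without 4C and -0.44 without 5C, called in both. The ratio of CHAF1A to CHAF1B was 1.58 and 1.88 with construct 2 and 1.82 and 1.70 with construct 1, against 1.79 and 1.82 in the controls.

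In DU145DR neither CAF-1 transcript passed the test. CHAF1A stood at 27.7 and 26.2 FPKM with construct 2 and at 26.2 and 26.4 FPKM with construct 1, against 28.3 and 27.8 FPKM in the controls (log2 fold change over both constructs -0.08, 95% interval -0.16 to 0.01, adjusted p = 0.179). CHAF1B stood at 18.0 and 16.7 FPKM with construct 2 and at 16.4 and 16.2 FPKM with construct 1, against 18.2 and 17.9 FPKM in the controls (-0.10, interval -0.25 to 0.05, adjusted p = 0.323). For CHAF1A the siPOM121 libraries all lay below both controls, and for CHAF1B 1 of the 4 lay between them.

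The 2 ASF1 paralogs moved in opposite directions in 22Rv1DR, and ASF1B moved in opposite directions in the 2 lines. ASF1B, the paralog tied to proliferating cells, stood at 33.4 and 32.8 FPKM with construct 2 and at 25.2 and 27.2 FPKM with construct 1 in 22Rv1DR, against 47.8 and 51.2 FPKM in the controls. Its groups did not overlap, and its log2 fold change was -0.58 ± 0.05 with construct 2 (adjusted p = 0.000178) and -0.92 ± 0.05 with construct 1 (adjusted p = 9.53e-06). ASF1A, expressed more evenly over cell types, stood at 17.1 and 17.4 FPKM with construct 2 and at 17.3 and 18.3 FPKM with construct 1, against 14.95 and 13.80 FPKM in the controls. All 4 siPOM121 libraries lay above both controls, and it rose by 0.26 ± 0.06 with construct 2 (adjusted p = 0.00783) and by 0.31 ± 0.06 with construct 1 (adjusted p = 0.00434). Without control library 5A the construct 2 call on ASF1A was lost (0.21). It was also lost with array weights (adjusted p = 0.146), lower-numbered lanes alone (adjusted p = 0.0627) and each line fitted alone (adjusted p = 0.0704). The construct 1 call on ASF1A was lost with each line fitted alone (adjusted p = 0.0577).

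In DU145DR, ASF1B stood at 95.1 and 96.1 FPKM with construct 2 and at 92.7 and 92.7 FPKM with construct 1, against 82.4 and 78.5 FPKM in the controls. Every siPOM121 library lay above both controls, and the transcript rose by 0.25 on the log2 scale with construct 2 (adjusted p = 0.0116) and by 0.20 with construct 1 (adjusted p = 0.0235). The rise over both constructs was 0.23 ± 0.04 (adjusted p = 0.00645) and lost its call without control library 2A (0.19, adjusted p = 0.0756). The single-construct calls were also lost without 1C or 2C for construct 2 (adjusted p = 0.0599 and 0.0682) and without 1B, 2B or 1A for construct 1 (0.106, 0.101 and 0.055). ASF1A stood at 20.1 and 20.5 FPKM with construct 2 and at 21.4 and 19.9 FPKM with construct 1, against 18.9 and 19.0 FPKM in the controls. All 4 values lay above both controls, by a log2 fold change of 0.11 that did not pass the test (adjusted p = 0.133). The ratio of ASF1B to ASF1A was 1.96 and 1.88 with construct 2 and 1.46 and 1.48 with construct 1 in 22Rv1DR, against 3.2 and 3.71 in the controls. In DU145DR it was 4.73 and 4.68 with construct 2 and 4.32 and 4.66 with construct 1, against 4.36 and 4.14 in the controls.

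**Figure D2:**
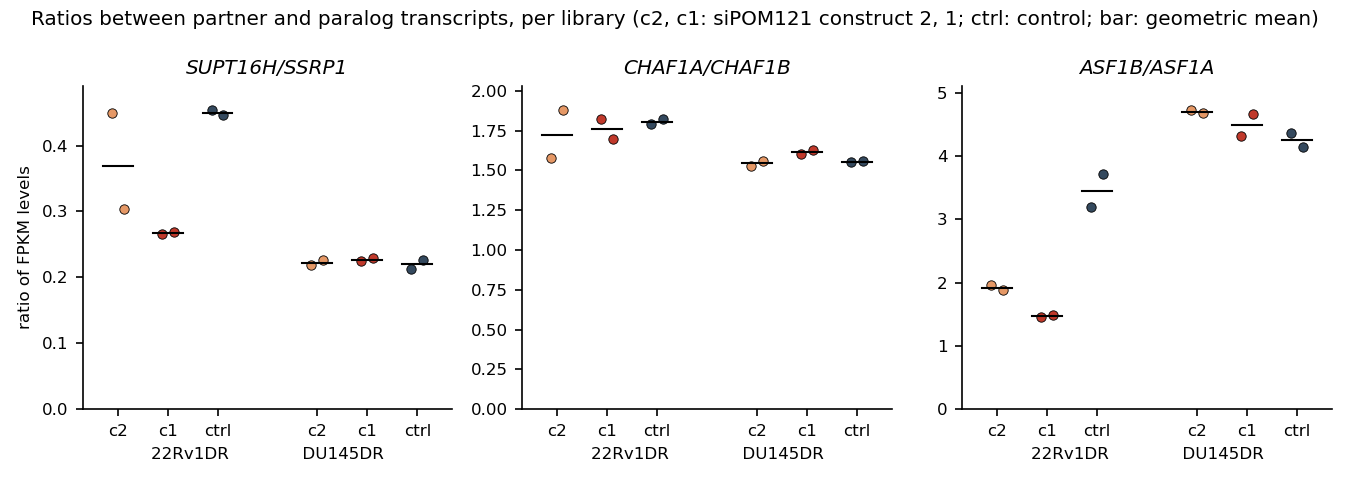
Ratio of the FPKM levels of partner subunits (SUPT16H over SSRP1, CHAF1A over CHAF1B) and of the ASF1 paralogs (ASF1B over ASF1A) in every library (points) with the geometric mean per group (bars), for construct 2 (c2), construct 1 (c1) and control (ctrl) in both lines. In 22Rv1DR the ASF1 ratio lies at 1.46 to 1.96 with siPOM121 and at 3.2 to 3.71 in controls, and the FACT ratio separates 4C (0.450) from 5C (0.303).

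NASP also fell in 22Rv1DR with both constructs. It stood at 47.4 and 35.7 FPKM with construct 2 (4C and 5C) and at 47.2 and 48.3 FPKM with construct 1 in 22Rv1DR, against 77.5 and 70.9 FPKM in the controls. All siPOM121 libraries lay below both controls, with 5C the lowest. The log2 fold change was -0.85 ± 0.11 with construct 2 (adjusted p = 0.000709) and -0.63 ± 0.11 with construct 1 (adjusted p = 0.00264), and the construct 2 value was -1.05 without 4C and -0.64 without 5C. In DU145DR, NASP stood at 53.5 and 53.3 FPKM with construct 2 and at 47.6 and 49.6 FPKM with construct 1, against 52.9 and 52.7 FPKM in the controls. The construct 1 libraries were the low ones there, and NASP was not called for the mean of both constructs (log2 fold change -0.05).

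Of the H3.3 chaperones HIRA was called lower with construct 2 in 22Rv1DR, and DAXX and ATRX with neither construct. HIRA stood at 14.1 and 19.5 FPKM with construct 2 (4C and 5C) and at 19.3 and 19.3 FPKM with construct 1 in 22Rv1DR, against 22.3 and 22.2 FPKM in the controls. All siPOM121 libraries lay below both controls, but 4C alone stood far below the rest. The log2 fold change was -0.42 ± 0.12 with construct 2 (adjusted p = 0.0222) and -0.21 ± 0.12 with construct 1 (adjusted p = 0.235). The construct 2 value was -0.19 without 4C and -0.66 without 5C. Its call was lost when either control library, 4A or 5A, was left out, and also with each line fitted alone (adjusted p = 0.197). The construct 1 value stayed at -0.21 and passed with 4C, 5C or both left out (adjusted p = 0.00202 with both), because all groups share 1 estimate of the spread.

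DAXX stood at 6.33 and 7.27 FPKM with construct 2 and at 6.30 and 6.87 FPKM with construct 1 in 22Rv1DR, against 7.50 and 7.68 FPKM in the controls. The siPOM121 libraries lay below both controls, with log2 fold changes of -0.16 ± 0.08 and -0.21 ± 0.08 that did not pass the test (adjusted p = 0.159 and 0.0954). The construct 2 value was -0.06 without 4C (adjusted p = 0.627) and -0.26 without 5C (adjusted p = 0.0225), where it passed. Over all 5 table lines of DAXX the values were -0.17 to -0.16 with construct 2 and -0.22 to -0.21 with construct 1. The construct 1 value stayed at -0.21 and passed with 4C, 5C or both left out (adjusted p = 0.0312 with both). ATRX, the SWI/SNF-family partner of DAXX, stood at 8.03 and 8.14 FPKM with construct 2 and at 8.26 and 8.31 FPKM with construct 1, against 8.35 and 7.71 FPKM in the controls. Its groups overlapped, and the 95% intervals of its log2 fold change ran from -0.11 to 0.14 with construct 2 and from -0.08 to 0.17 with construct 1.

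In DU145DR, HIRA stood between 32.5 and 33.0 FPKM in the siPOM121 libraries, against 34.6 and 32.4 FPKM in the controls. DAXX stood between 9.64 and 10.4 FPKM, against 10.1 and 9.25 FPKM in the controls, and ATRX between 9.46 and 10.2 FPKM, against 9.45 and 9.72 FPKM in the controls. The groups of all 3 genes overlapped, and none of the 3 passed the test for the mean of both constructs (log2 fold changes -0.03, 0.05 and 0.02).

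Counted over the 10 genes, siPOM121 as the mean of both constructs called 7 lower and 1 higher in 22Rv1DR, where 20.4% of all tested symbols were called lower and 15.2% higher. The median log2 fold change of the 10 was -0.68, against -0.02 over all symbols. With construct 2, 8 were called (35.1% of all symbols), 7 of them lower, and the median was -0.51. With construct 1, 7 were called (27.1% of all symbols), 6 of them lower, and the median was -0.69. The HIRA call over both constructs (adjusted p = 0.0393) was lost in 13 of 23 alternatives, and its value of -0.31 was -0.20 without 4C and -0.43 without 5C, called in both. Without 5C the DAXX value over both constructs also passed (-0.23, adjusted p = 0.0112). In DU145DR 1 gene was called lower and 1 higher over both constructs, where 9.37% and 14.5% of all symbols were, and the median was -0.04 against 0.00. Construct 2 alone called ASF1B in DU145DR (16.6% of all symbols), and construct 1 alone called ASF1B and SSRP1 (19.8%). Fitting each line alone, which leaves fewer degrees of freedom, cut the 22Rv1DR construct 2 count to 3, namely SSRP1, CHAF1A and ASF1B. The count over all symbols fell in that fit as well, as given in the closing section. Without 4A, and so within 1 lane pair, the construct 1 log2 fold changes in 22Rv1DR were -1.50 for SUPT16H, -0.76 for SSRP1, -0.99 for CHAF1A, -0.94 for CHAF1B, -0.97 for ASF1B, -0.57 for NASP and 0.37 for ASF1A, all still called.

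**Figure D3:**
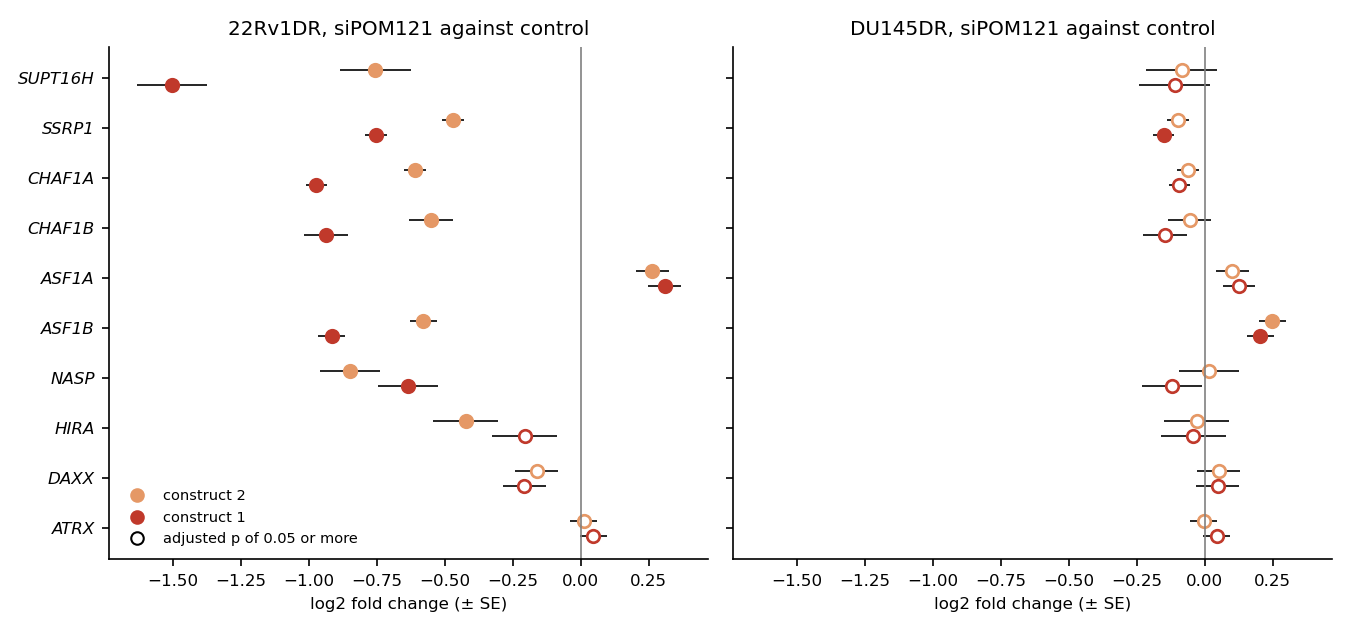
Log2 fold change against control (x axis) with its standard error (lines) for each gene and construct, in 22Rv1DR (left) and DU145DR (right); filled points have an adjusted p under 0.05 in limma, n = 2 libraries per group. In 22Rv1DR the values run from -1.50 (SUPT16H, construct 1) to 0.31 (ASF1A, construct 1), and in DU145DR ASF1B is the gene called with both constructs (0.25 and 0.20).

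**Figure D4:**
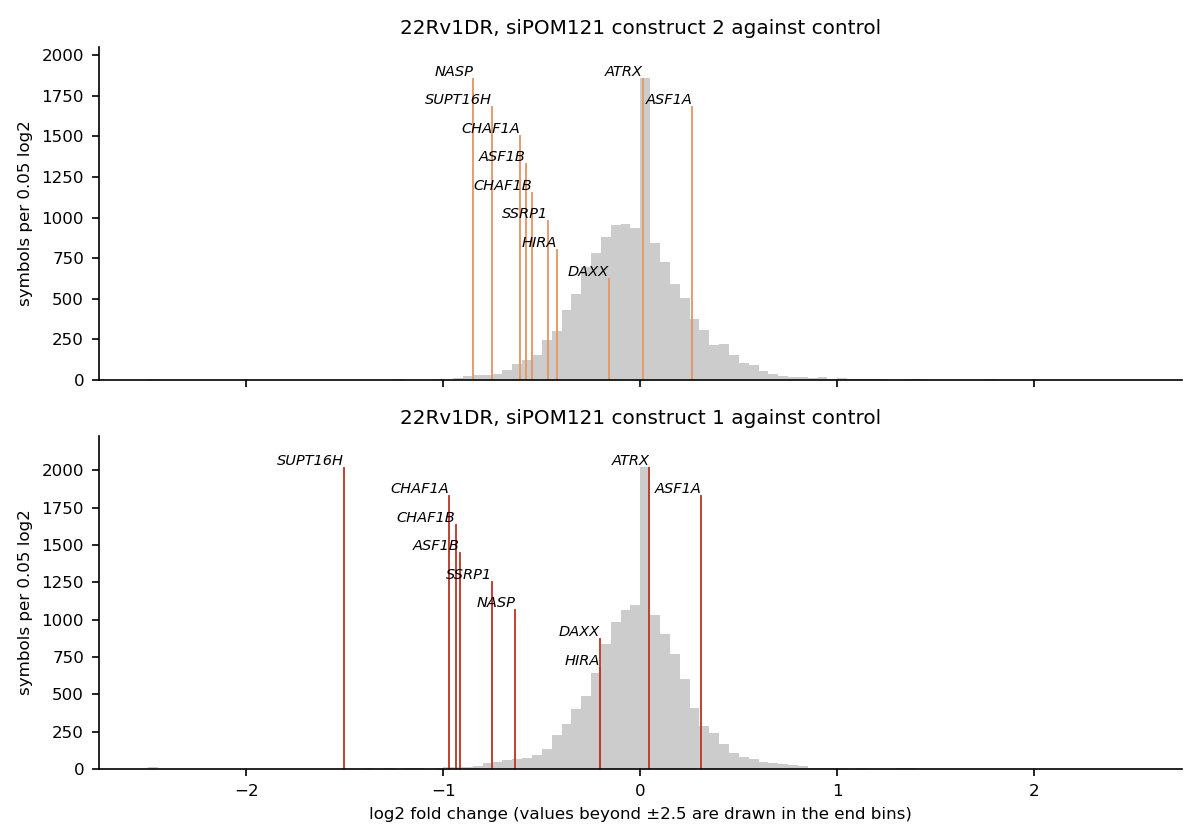
Histogram of the log2 fold changes of all 13622 tested symbols in 22Rv1DR for construct 2 (above) and construct 1 (below), in bins of 0.05, with the 10 genes marked by lines whose heights carry no value. The spike beside 0 includes symbols with a rounded log2 fold change of 0, such as those listed at 0 in both groups. Symbols with that value were 6.71% and 6.75% of those tested. With construct 1, 0.184% of symbols had a lower value than SUPT16H (-1.50).

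The 2 constructs were compared with each other within 22Rv1DR. Construct 2 left 5 of the 10 transcripts higher than construct 1 did and none lower, where 7.30% of all symbols were called higher and 4.28% lower. These were SUPT16H (log2 difference 0.75 ± 0.13, adjusted p = 0.0096), SSRP1 (0.28, adjusted p = 0.00604), CHAF1A (0.36, adjusted p = 0.00226), CHAF1B (0.39, adjusted p = 0.0159) and ASF1B (0.34, adjusted p = 0.00599). The others did not pass the test: the 95% interval of the difference ran from -0.46 to 0.03 for NASP, from -0.48 to 0.05 for HIRA, from -0.17 to 0.09 for ASF1A, from -0.14 to 0.23 for DAXX and from -0.16 to 0.09 for ATRX. POM121 itself differed by -0.13 between the constructs (adjusted p = 0.153). The libraries 4C and 5C decided some of these values. The NASP difference was -0.42 without 4C (adjusted p = 0.00177) and -0.01 without 5C, and the HIRA difference was 0.02 without 4C and -0.45 without 5C (adjusted p = 0.000147). The CHAF1B difference was 0.27 without 4C and 0.50 without 5C, both called. The SUPT16H difference was 0.49 without 4C and 1.01 without 5C, and with arrays weighted by their quality or each line fitted alone only 1 gene of the 10 was called. Over all symbols the counts in both settings fell as well, as given in the closing section. Without 4B, where fewer of all symbols were called as well, SUPT16H (0.72), SSRP1 (0.26), CHAF1B (0.33) and ASF1B (0.28) lost their calls. Without 5B, SUPT16H (0.78) and CHAF1B (0.44) lost theirs. In DU145DR none of the 10 was called between constructs, where 0.0220% of all symbols were. There limma gave 0 of the 10 an unadjusted p under 0.05 as well, and the widest 95% intervals of the log2 difference ran from -0.27 to 0.32 for SUPT16H, from -0.25 to 0.28 for HIRA and from -0.11 to 0.38 for NASP.

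The siPOM121 effect was lower in 22Rv1DR than in DU145DR for 6 of the 10 transcripts and higher for none, where 15.9% of all symbols were called lower and 8.93% higher. ASF1B had the smallest adjusted p of them, with a 22Rv1DR effect of -0.75 against a DU145DR effect of 0.23, a difference of -0.98 ± 0.06 (adjusted p = 6.85e-05). SUPT16H (-1.03 ± 0.16, adjusted p = 0.00254), CHAF1A (-0.71 ± 0.05, adjusted p = 0.000141), NASP (-0.69 ± 0.13, adjusted p = 0.00635), CHAF1B (-0.64 ± 0.09, adjusted p = 0.00202) and SSRP1 (-0.49 ± 0.05, adjusted p = 0.000604) were the other 5. ASF1A (0.17), HIRA (-0.28), DAXX (-0.23) and ATRX (0.01) did not pass, with adjusted p-values of 0.104, 0.186, 0.12 and 0.946. In other limma settings ASF1A passed as higher with quantile normalization (0.23, adjusted p = 0.0337). HIRA passed as lower with array weights (adjusted p = 0.0261) and DAXX with a replicate block (adjusted p = 0.0498). The HIRA difference was -0.16 ± 0.05 without 4C and -0.40 ± 0.05 without 5C, against a standard error of 0.14 in the full fit. The DAXX difference was -0.28 ± 0.08 without 5C. Their tests passed in these fits, from which the spread between 4C and 5C is missing. The fall of the POM121 transcript also differed between the lines, and its part in these differences was not tested.

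Without siPOM121 the 2 lines already differed in 9 of the 10 transcripts, 2 higher and 7 lower in 22Rv1DR, where 40.3% and 42.7% of all symbols were. SUPT16H stood at 54.1 and 53.9 FPKM in 22Rv1DR controls and at 32.6 and 33.0 FPKM in DU145DR controls (log2 difference 0.72, adjusted p = 0.000519), and NASP was higher as well (0.49, adjusted p = 0.00186). ASF1B, at 47.8 and 51.2 FPKM in 22Rv1DR controls and 82.4 and 78.5 FPKM in DU145DR controls, was the lowest in relative terms (-0.70, adjusted p = 6.97e-07), followed by HIRA (-0.59) and ASF1A (-0.40). The lower CHAF1B level (-0.24, adjusted p = 0.0154) lost its call in 5 alternatives, with -0.09 (adjusted p = 0.388) under quantile normalization. CHAF1A did not differ beyond the spread (-0.03, adjusted p = 0.589), and its sign turned with quantile normalization (0.13, adjusted p = 0.0207).

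On the FPKM scale, which is per length, SSRP1 was the most abundant of the 10 in the controls of both lines (119 and 121 FPKM in 22Rv1DR, 153 and 145 FPKM in DU145DR). In 22Rv1DR controls it was followed by NASP, SUPT16H, ASF1B, CHAF1A and HIRA, each pair of libraries lying clear of the next. In DU145DR controls ASF1B and NASP came next, and HIRA (34.6 and 32.4 FPKM) and SUPT16H (32.6 and 33.0 FPKM) could not be ordered. With DAXX read from 1 of its 5 table lines, DAXX and ATRX were the 2 lowest in both cell lines. Their libraries did not separate in DU145DR, where ATRX stood at 9.45 and 9.72 FPKM and DAXX at 10.1 and 9.25 FPKM. Summed over its 5 table lines, DAXX stood at 36.1 FPKM in 22Rv1DR controls and 48 FPKM in DU145DR controls, above HIRA in both. The place of DAXX in this order thus depends on how its table lines are treated.

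A further 30 histone chaperones and partners, listed with earlier results known, were all measured. In 22Rv1DR siPOM121 called 19 of them lower and 1 higher over both constructs, or 63.3% and 3.33%, where 20.4% and 15.2% of all symbols were. Their median log2 fold change was -0.19, against -0.02 over all symbols. MCM2, a helicase subunit that also binds H3-H4, fell with a log2 fold change of -0.83 (adjusted p = 9.65e-06). DNAJC9, a co-chaperone of H3-H4, had -0.60 (adjusted p = 0.000417), and TONSL, which reads new histones behind the fork, had -0.59 (adjusted p = 0.000172). The importin IPO4 (-0.54, adjusted p = 0.000731), RBBP4, the small CAF-1 subunit (-0.46, adjusted p = 0.0013), and nucleolin, NCL (-0.41, adjusted p = 0.000129), were also lower. In DU145DR 4 were lower and 4 higher, or 13.3% each, near the 9.37% and 14.5% of all symbols, with a median of -0.08 against 0.00. Among them IPO4 (-0.39, adjusted p = 0.00507), GRWD1 (-0.39, adjusted p = 0.00767), NCL (-0.32, adjusted p = 0.000667) and C1QBP (-0.21, adjusted p = 0.00835) were lower, and APLF (0.42, adjusted p = 0.00244) and the HIRA partner CABIN1 (0.25, adjusted p = 0.00829) were higher. Between lines 11 of the 30 (36.7%) had a lower effect in 22Rv1DR and none a higher one, where 15.9% and 8.93% of all symbols had, with MCM2 (-0.83) and TONSL (-0.59) among them. APLF was also among the 11, but it stood at the 1 FPKM floor in all 22Rv1DR groups, where a fall could not be seen. Its DU145DR levels were near the floor too, at 1.75 FPKM in controls, 2.29 FPKM with construct 1 and 2.4 FPKM with construct 2.

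Constructs also differed over this list in 22Rv1DR, with 8 of the 30 (26.7%) higher and 2 (6.67%) lower with construct 2, where 7.30% and 4.28% of all symbols were. DEK, an H3.3 chaperone, was higher by 0.67 (adjusted p = 0.00129) and HJURP, the chaperone of the centromeric H3 variant, by 0.46 (adjusted p = 0.00379), while ANP32A was lower by a log2 difference of -0.24 (adjusted p = 0.0115). A list of 20 DNA replication genes, such as PCNA, MCM and RFC subunits, moved alongside in 22Rv1DR. MCM2 is counted both in this list and among the 30 chaperones and partners. Of these 19 were lower and none higher over both constructs, where 20.4% and 15.2% of all symbols were, with a median of -0.67. With construct 2 alone 14 were lower (median -0.48) and with construct 1 alone 19 (median -0.90), where 35.1% and 27.1% of all symbols were called in either direction. In DU145DR 5 of the 20 were lower and none higher (median -0.05), where 9.37% and 14.5% of all symbols were. The part of replication gene levels in the chaperone values was not tested.

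The genes whose profiles were nearest to each member were found by the mean absolute log2 difference over the 12 libraries after centring each gene within each line, a description with no test. Nearest to SUPT16H were RFWD3 (0.085) and MCM10 (0.107), against a median distance of 0.335 over all candidates. For SSRP1 they were RRM1 (0.029) and TPX2 (0.030), for CHAF1A ZWINT (0.029) and MCM5 (0.033), and for CHAF1B CENPM (0.033) and CDC45 (0.041). LIG1 (0.049) and KIFC1 (0.072) were nearest to ASF1B, and MTHFD1 (0.038) and PSMC3 (0.065) to NASP. Nearest to ASF1A was YIPF5 (0.022), to HIRA TBC1D9B (0.020) and to ATRX HPS5 (0.017). The points share their libraries, so the distances describe these 12 libraries alone.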

How the data were processed

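Poly(A) RNA-seq libraries that do not keep the strand were made with TruSeq v2 reagents, per the labels' protocols. Reads were processed with TopHat and Cufflinks, and the builds hg19 and mm10 are named, per the submitters' processing notes. The authors deposited log2 FPKM values in 1 table of 24 samples. The base was read from the values: 100.0% of the 305952 values above 0 turn into 6 significant digits as powers of 2 (within 0.02 units of the sixth digit), against 3.97% with base e. FPKM values at or under 1 were deposited as 0 (52.8% of values), so a level listed at 0 may be low or not estimated. Depth is unknown, and no counting interval is given. Of 25277 symbols, 605 lie on more than 1 line, of which only that with the highest mean entered.

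The 2 lanes of each of the 12 libraries were averaged on the log2 scale (FPKM are powers of 2 of these means). The design had assumed plain FPKM; since the values are already log2, no pseudocount was added. Symbols above the floor in both lanes of at least 2 libraries (13622) were fitted with limma 3.58.1 in R 4.3.3, with 6 group means and 6 residual degrees of freedom, trend and robust moderation, 2-sided tests and Benjamini-Hochberg adjustment over all of them, threshold 0.05, for 10 comparisons. The fit was tested on simulated data with known changes. Library numbers did not pair the samples (correlations of library deviations -0.10 to 0.13). The members and lists were chosen with earlier results of these data known. All 10 members are named, with POM121, up to 6 other chaperones per comparison by smallest p among those called, and the 2 nearest symbols per member among those with at least 5 FPKM in both lines. A marker and a nearest symbol are not reported here. The alternatives were pseudocounts of 1 and 0.1 FPKM, filters, quantile normalization, array weights, a replicate block, each line alone, single lanes, 24 samples as replicates and each library left out. Promoters came from RefSeq (GRCh38.p14), a build other than that of the files, and no coordinates of the files were used.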

Additional observations from a re-analysis of the deposited data

Results flagged for a closer look

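For 6 of the 10 transcripts the siPOM121 effect, as the mean of both constructs against control, differed between the 2 lines in limma's test of the difference itself. The log2 difference of the effects (22Rv1DR minus DU145DR) was -1.03 for SUPT16H, -0.98 for ASF1B, -0.71 for CHAF1A, -0.69 for NASP, -0.64 for CHAF1B and -0.49 for SSRP1. For ASF1B the effects had opposite signs, with all 4 siPOM121 libraries below both controls in 22Rv1DR and all 4 above both controls in DU145DR. The 6 calls were kept in each fit that left out 1 library. The fall of POM121 itself was also larger in 22Rv1DR (log2 difference -1.66), which was not tested as a source of these differences.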

How the results depend on the processing

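Across 25 settings, 82 of 2350 alternative values of the 10 genes lost their call and 41 gained one in the same direction. The sign differed from the full fit in 35, of which 34 were called in neither fit and 1 was called in the alternative (CHAF1A between control lines, 0.13 with quantile normalization against -0.03). The other 2192 kept direction and side of the threshold; the causes were not tested beyond what is said here. With 2 libraries per group and unknown depth, small effects cannot be resolved, and leaving out a library assumes that the lone one varies like the other groups. Sequencing lanes are confounded with 4A among 22Rv1DR controls.

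Leaving out 1 library at a time gave 0 to 3 genes of the 10 for siPOM121 in DU145DR (2 in the full fit), 0 to 3 for construct 1 there (2), 0 to 1 for construct 2 (1) and 1 to 6 for the construct difference in 22Rv1DR (5, lowest without 4B). Over all symbols it gave 1551 to 5136 for siPOM121 in DU145DR (3253), 1299 to 4631 for construct 1 (2700), 995 to 4136 for construct 2 (2258) and 2 to 28 for the construct difference (3). In 22Rv1DR it gave 2548 to 7016 for siPOM121 (4842), 1928 to 5875 for construct 1 (3697), 2456 to 7165 for construct 2 (4783), 223 to 5983 for the construct difference (1577) and 1689 to 6180 for the line difference (3377). The lowest of these counts over symbols came without 1A, 1B, 2A, 5A, 4B, 5A, 4B and 2A in that order (leaving aside the DU145DR construct difference), and the highest without 4C or 5C, except 28 without 2C.

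With 24 samples as replicates, which counts lanes as libraries, 4, 4 and 2 of the 10 genes were called in DU145DR for siPOM121, construct 1 and construct 2, and 5529, 4982 and 4606 symbols. The same setting called 6049 symbols for construct 1 in 22Rv1DR, 121 and 4757 for the construct difference in DU145DR and 22Rv1DR, and 6014 for the line difference. Array weights called 5160, 4680 and 4090 symbols in DU145DR, 6120 for construct 1 and 1532 for construct 2 in 22Rv1DR, 7 and 131 for the construct differences, and 1 gene of the 10 for that in 22Rv1DR. Each line fitted alone called 1 gene for siPOM121 and 1 for construct 1 in DU145DR, 3 for construct 2 in 22Rv1DR and 1 for the construct difference there. It called 2065, 1485 and 1516 symbols for siPOM121, construct 1 and construct 2 in 22Rv1DR, and 0 and 71 for the construct differences in DU145DR and 22Rv1DR. Without both 22Rv1DR construct 2 libraries, an alternative chosen after seeing the data, 5133, 4630 and 4148 symbols were called in DU145DR and 5875 for construct 1 in 22Rv1DR. Higher-numbered lanes alone called 1 gene for siPOM121 and 1 for construct 1 in DU145DR, and 6 and 874 symbols for the construct differences; lower-numbered lanes called 1 gene for construct 1, and 7 and 887 symbols. For the construct difference in DU145DR, pseudocounts of 1 and 0.1 FPKM called 11 and 24 symbols, no filter 5 and the floor in all samples 0. Quantile normalization left 1 gene for construct 1 in DU145DR, and moved the share of higher among all calls to 54.3% for construct 2 in DU145DR (66.1% in the full fit) and to 49.2% for the line difference (36.0%). The replicate block called 1 gene for siPOM121 (SSRP1 missed, adjusted p = 0.0549) and 1 for construct 1 in DU145DR, and 1 symbol for the construct difference there; the numbers did not pair the samples.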
